A study of Homo sapiens with 15 samples.

Results

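The report covers 10 genes that place, supply or remove sialic acid, carry it, or build a related glycolipid: ST8SIA4, NCAM1, A4GALT, ST6GAL1, ST3GAL1, ST3GAL4, ST3GAL5, CMAS, GNE and NEU1. They were taken by symbol from a gene table of 60664 identifiers. Each symbol matched 1 identifier, and all 10 genes were among the 19516 that passed the filter on low counts. RNA was measured in KPL4, a human breast adenocarcinoma line with amplified HER2, in 5 groups of 3 libraries. LY500307 cells were ERβ knockout cells given exogenous ERβ (estrogen receptor β, the product of ESR2). They spent 72 h in a depleted medium, free of phenol red and with 1% serum stripped on charcoal, before 24 h of 200 nM LY500307, an ERβ agonist, in that medium. Vehicle cells were the same cells given DMSO for 24 h after the same 72 h. Add-back cells were knockout cells with exogenous ERβ in growth medium with 7% serum, insulin and hydrocortisone, without treatment. Knockout cells, labelled as lacking ERβ, were kept in that growth medium, as were control cells, which kept their own ESR2 gene. The labels state neither how many clones the knockout line came from nor whether the libraries of a group came from separate cultures, so p-values measure the spread between libraries, which may be technical.

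Sialic acid is the sugar that most often ends the glycans of vertebrate cell surfaces. GNE makes its precursor, CMAS activates the finished sugar to the CMP form in the nucleus, and sialyltransferases of the Golgi pass it on to galactose, to N-acetylgalactosamine or to another sialic acid. Sialidases such as NEU1 remove it again. ST8SIA4 builds polysialic acid, a long chain best known on NCAM1, which lowers the adhesion of this molecule. In breast carcinomas, sialylated and globo-series glycans are studied as surface antigens.

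The choice of these genes rested in part on their values here. Levels here are CPM, counts scaled to a common library size. Among called protein-coding genes whose mean log2 CPM reached 1 and whose groups did not overlap, ST8SIA4 had the 6th largest fall in knockout against control cells (of 3503 that fell) and the 3rd largest rise in add-back against knockout cells (of 1800). NCAM1 had the 5th largest fall in add-back against knockout cells (of 1248), and A4GALT the 5th largest rise with LY500307 against vehicle (of 863). Values from those comparisons, and from others that share libraries with them, are given below for these 3 genes as descriptions with no p-value.

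The 250 bases before the RefSeq start site (GRCh38.p14) are shown for the 3 of the 10 genes with an entry whose levels differed most between knockout and control cells, with every GC box (GGGCGG, either strand, overlapping matches allowed) in capitals. The ST8SIA4 window lies at chr5:100903283-100903532 on the minus strand, the A4GALT window at chr22:42720871-42721120 on the minus strand and the ST6GAL1 window at chr3:186930276-186930525 on the plus strand.
ST8SIA4: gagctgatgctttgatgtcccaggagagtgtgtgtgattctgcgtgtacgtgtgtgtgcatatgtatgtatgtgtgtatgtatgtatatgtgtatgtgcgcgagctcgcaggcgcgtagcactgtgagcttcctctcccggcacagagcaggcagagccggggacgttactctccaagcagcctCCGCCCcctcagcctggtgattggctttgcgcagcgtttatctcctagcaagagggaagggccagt
A4GALT: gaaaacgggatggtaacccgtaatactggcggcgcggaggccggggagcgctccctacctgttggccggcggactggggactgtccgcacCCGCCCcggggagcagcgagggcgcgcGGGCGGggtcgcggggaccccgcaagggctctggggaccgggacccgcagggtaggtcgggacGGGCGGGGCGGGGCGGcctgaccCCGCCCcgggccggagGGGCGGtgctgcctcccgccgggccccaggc
ST6GAL1: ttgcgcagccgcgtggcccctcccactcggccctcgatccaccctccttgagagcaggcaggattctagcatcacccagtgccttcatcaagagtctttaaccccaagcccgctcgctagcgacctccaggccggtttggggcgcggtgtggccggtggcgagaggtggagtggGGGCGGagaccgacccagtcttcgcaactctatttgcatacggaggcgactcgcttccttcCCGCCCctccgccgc
The ST8SIA4 window is 55.6% G and C with 1 GC box, the A4GALT window 79.2% with 7 and the ST6GAL1 window 65.6% with 2. GC boxes occur in 42.6% of 35116 RefSeq windows of this length. The RefSeq table held a window for 8 of the 10 genes, NCAM1 and ST3GAL1 having none. None of the 8 windows held a full estrogen response element (AGGTCANNNTGACC, in 0.0256% of all windows), its single arm (AGGTCA, 12.1%) or an AP-1 motif (TGANTCA, 6.57%) on either strand. Only the CMAS window held the letters of a TATA box (TATAAA, 10.7%), at position -243 from the RefSeq start site, near the far end of the window. These are matches of letters within 250 bases and say nothing of factor binding. Of the A4GALT counts, 19.0% were assigned to transcripts that start in the printed window or the 50 bases after it. The share was 95.7% for ST8SIA4 and 37.8% for ST6GAL1. For the windows not printed it was 4.33% for ST3GAL5, 36.7% for ST3GAL4, 66.5% for GNE, 79.3% for NEU1 and 95.1% for CMAS. A single window per gene was searched, so motifs near other start sites were not looked for.

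The shallowest library had 12614074 expected counts (knockout replicate 2) and the deepest 19390378 (vehicle replicate 2). CPM values carry TMM scaling, as mean ± SD over 3 libraries. ESR2 was measured at 43.9 ± 1.36 CPM with LY500307, 45.2 ± 3.24 with vehicle, 32.8 ± 1.94 in add-back, 4.41 ± 1.36 in knockout and 5.76 ± 0.867 in control cells, the knockout and control libraries overlapped, and a transcript level does not show whether the knockout removed the protein. The sum over 6 luminal and epithelial markers (EPCAM, CDH1, KRT8, KRT18, KRT19 and ERBB2) was 9590 to 10000 CPM with LY500307 and lowest in control cells, 6320 to 6550 CPM. ERBB2 made up most of it, at 6194 CPM with LY500307 and 3521 CPM in control cells. ERBB2 and KRT19 were called higher in knockout against control cells and the other 4 lower, and EPCAM had its highest mean in control cells (385 CPM). Of 7 neuronal and neuroendocrine markers 2 passed the filter and the sum did not exceed 4.65 CPM in any library. No NK, T cell or muscle marker passed it, and NCR1, STMN2, MYOD1 and DES were at 0 counts in all 15 libraries. Endothelial and stromal markers (3 of 6 tested) summed to 14.5 to 15.1 CPM with LY500307, 12.8 to 13.8 with vehicle, 7.22 to 7.90 in add-back, 6.74 to 7.61 in knockout and 4.99 to 7.57 in control cells. The part of these marker levels in the values below was not tested.

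**Figure D1:**
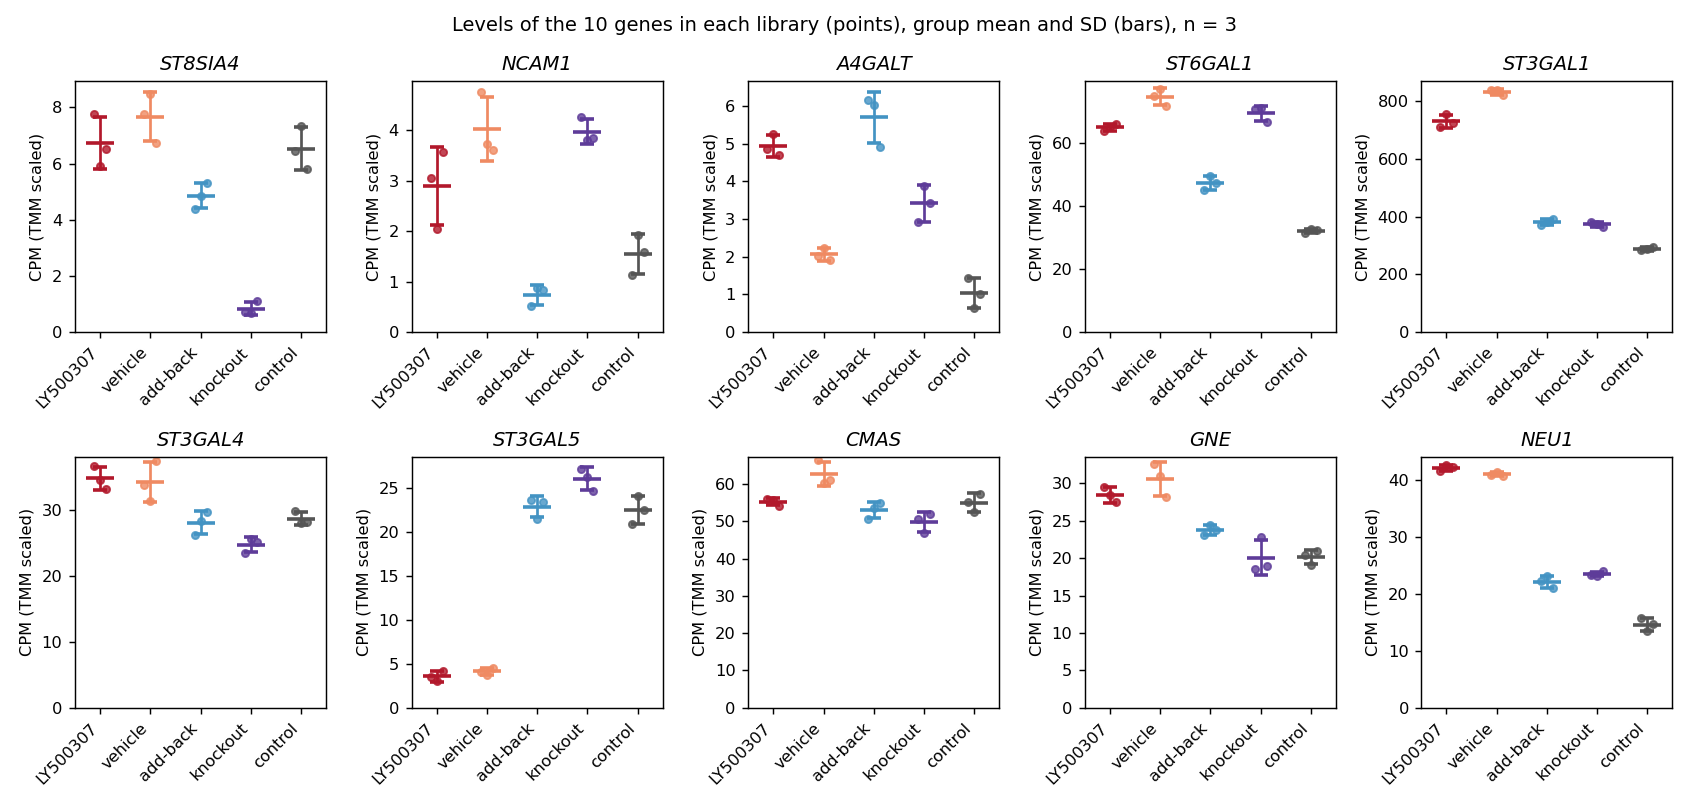
CPM with TMM scaling (vertical axes, from 0) of the 10 genes in each library (points) of the 5 groups, with the group mean and SD (bars, n = 3). ST8SIA4 was lowest in the 3 knockout libraries (0.685 to 1.10 CPM), NCAM1 in the 3 add-back libraries and A4GALT in the 3 control libraries, while ST3GAL5 stayed under 5 CPM in the 6 libraries of depleted medium.

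ST8SIA4 (ENSG00000113532, GRCh38 chromosome 5, 100806935 to 100903266, minus strand), the polysialyltransferase that extends sialic acid chains on NCAM1 and a few other carriers, had its lowest levels in knockout cells. The 3 libraries of each group had 7.75, 5.92 and 6.52 CPM with LY500307, 7.77, 8.49 and 6.74 CPM with vehicle, 4.40, 4.86 and 5.30 CPM in add-back cells, 0.713, 0.685 and 1.10 CPM in knockout cells and 6.44, 7.36 and 5.81 CPM in control cells. Knockout libraries lay far below every other library, add-back libraries lay below all libraries of the remaining 3 groups, and those 3 groups overlapped. The knockout values rest on 10, 9 and 18 counts, against 85, 103 and 92 in control libraries. The log2 fold change was -2.93 ± 0.21 (SE) in knockout against control cells and 2.51 ± 0.21 in add-back against knockout cells. Add-back cells had 4.85 ± 0.451 CPM and control cells 6.54 ± 0.777 CPM (SD, n = 3 each), a log2 difference of -0.43 ± 0.15. Vehicle cells, with 7.67 ± 0.877 CPM, stood 0.67 ± 0.14 above add-back cells on the log2 scale. LY500307 against vehicle shares no library with the values that chose the gene. There the log2 difference was -0.19 ± 0.13, with a 95% interval of -0.45 to 0.07 and an adjusted p of 0.439, so no effect of the agonist was detectable at this depth. In bulk RNA, fewer cells that express a gene and less of its RNA per cell cannot be told apart.

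NCAM1 (ENSG00000149294, chromosome 11, 112961247 to 113278436, plus strand) encodes the neural cell adhesion molecule CD56, the main carrier of polysialic acid. The libraries had 3.06, 2.05 and 3.58 CPM with LY500307, 4.77, 3.74 and 3.61 CPM with vehicle, 0.518, 0.884 and 0.831 CPM in add-back cells, 4.28, 3.81 and 3.86 CPM in knockout cells and 1.14, 1.93 and 1.58 CPM in control cells. Vehicle and knockout libraries overlapped at the top, LY500307 libraries came next, control libraries below them and add-back libraries lowest, with 8, 16 and 13 counts. In knockout against control cells the log2 fold change was 1.35 ± 0.23, and in add-back against knockout cells it was -2.39 ± 0.26. Against control cells, add-back cells differed by -1.04 ± 0.30. Vehicle cells (4.04 ± 0.635 CPM) stood 2.41 ± 0.25 above add-back cells (0.744 ± 0.198 CPM) on the log2 scale, and in vehicle cells both ST8SIA4 and its carrier were at the top of their ranges. LY500307 cells had 2.90 ± 0.776 CPM. Their log2 difference from vehicle cells was -0.47 ± 0.20, with a 95% interval of -0.87 to -0.08 and an adjusted p of 0.172, which missed the threshold of 0.05 although the libraries did not overlap. Knockout libraries had the highest sums of neuronal and neuroendocrine markers (2.97 to 4.65 CPM) and of NK and T cell markers (1.07 to 1.47 CPM). In control libraries these sums were at most 2.72 and 0.929 CPM. CHGA made up most of the neuronal sum, with means of 2.93 CPM in knockout and 2.09 CPM in control cells. It was not called between these groups (0.50, adjusted p 0.111), nor was SYP (-0.16, adjusted p 0.814), and no NK or T cell marker passed the filter. Vehicle libraries, whose NCAM1 levels overlapped with those of knockout libraries, had sums of 1.44 to 2.19 CPM and 0.613 to 0.980 CPM. The part of these markers in the NCAM1 values was not tested.

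A4GALT (ENSG00000128274, chromosome 22, 42692112 to 42721298, minus strand) adds the terminal galactose of globotriaosylceramide (Gb3), the first globo-series glycolipid. Its levels were 4.87, 5.26 and 4.70 CPM with LY500307, 2.03, 2.24 and 1.91 CPM with vehicle, 6.15, 6.02 and 4.92 CPM in add-back cells, 2.92, 3.88 and 3.43 CPM in knockout cells and 1.44, 0.643 and 1.01 CPM in control cells. Add-back and LY500307 libraries overlapped, and the other groups stood apart in the order knockout, vehicle and control. The log2 fold change with LY500307 against vehicle was 1.25 ± 0.18, a 2.38-fold difference, and that of vehicle against add-back cells was -1.46 ± 0.18. Earlier results of these data were known when the genes were chosen, so the adjusted p-values below may reflect that choice. The rank that chose A4GALT used no untreated cells. There it rose in knockout against control cells (log2 fold change 1.73 ± 0.22, adjusted p 3.24e-06), rose further in add-back against knockout cells (0.74 ± 0.16, adjusted p 0.003) and was 5.54-fold higher in add-back than in control cells (2.47 ± 0.21, adjusted p 1.23e-08), with no overlap of libraries in any of these. Control values rest on 19, 9 and 16 counts.

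ST6GAL1 (ENSG00000073849, chromosome 3, 186930485 to 187078553, plus strand) caps the galactose of N-glycans on receptors and integrins. It had 63.8, 65.3 and 66.0 CPM with LY500307, 75.0, 77.4 and 71.9 CPM with vehicle, 45.2, 49.5 and 47.3 CPM in add-back cells, 70.8, 71.1 and 66.8 CPM in knockout cells and 31.5, 32.7 and 32.4 CPM in control cells. No 2 groups overlapped. It rose 2.16-fold in knockout against control cells (log2 fold change 1.11 ± 0.05, adjusted p 8.93e-13) and fell in add-back against knockout cells (-0.55 ± 0.05, adjusted p 4.05e-08) to a level still above control (0.56 ± 0.05, adjusted p 2.93e-08). Vehicle cells exceeded add-back cells (0.66 ± 0.05, adjusted p 5.06e-10). With LY500307 it fell slightly against vehicle (-0.20 ± 0.04, adjusted p 0.00889), a call that was lost without vehicle replicate 1 (adjusted p 0.054), vehicle replicate 2 (0.0929) or LY500307 replicate 1 (0.0588).

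ST3GAL1 (ENSG00000008513, chromosome 8, 133454848 to 133571940, minus strand) caps the core galactose of mucin-type O-glycans. Its libraries had 711, 754 and 726 CPM with LY500307, 838, 838 and 822 CPM with vehicle, 372, 381 and 391 CPM in add-back cells, 381, 374 and 365 CPM in knockout cells and 283, 287 and 294 CPM in control cells. Add-back and knockout libraries overlapped and the other groups did not. It rose in knockout against control cells (log2 fold change 0.37 ± 0.03, adjusted p 7.57e-09). Add-back against knockout cells gave 0.03 ± 0.03 with a 95% interval of -0.03 to 0.09 (adjusted p 0.535), so the add-back libraries remained above control (0.40 ± 0.03, adjusted p 3.53e-09). The largest step was that of vehicle against add-back cells, 2.18-fold (1.13 ± 0.03, adjusted p 7.91e-16). It fell with LY500307 against vehicle (-0.19 ± 0.03, adjusted p 0.00139), and the call held without any single library.

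ST3GAL5 (ENSG00000115525, chromosome 2, 85837120 to 85905199, minus strand) makes ganglioside GM3 from lactosylceramide, the lipid that A4GALT also uses. Its levels were 3.51, 3.02 and 4.17 CPM with LY500307, 4.12, 3.74 and 4.56 CPM with vehicle, 23.7, 21.6 and 23.4 CPM in add-back cells, 27.2, 26.3 and 24.7 CPM in knockout cells and 20.9, 24.1 and 22.5 CPM in control cells. All 6 libraries of the depleted medium lay far below the 9 others. It fell in vehicle against add-back cells to 0.180 of their level (log2 fold change -2.47 ± 0.10, adjusted p 2.66e-13), the largest change of any of the 7 genes that were not chosen by rank. Medium, serum, insulin, hydrocortisone, time and DMSO differ together between these groups and cannot be told apart. LY500307 against vehicle gave -0.20 ± 0.14 (adjusted p 0.451). Knockout cells were higher than control cells (0.21 ± 0.08, adjusted p 0.0335), a call lost with DESeq2 (adjusted p 0.119) and without control replicate 1 (0.142), control replicate 3 (0.0752), knockout replicate 1 (0.0978) or knockout replicate 2 (0.0776). Add-back cells differed from knockout cells by -0.19 ± 0.08 (adjusted p 0.0932) and from control cells by 0.02 ± 0.08 (adjusted p 0.847).

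ST3GAL4 (ENSG00000110080, chromosome 11, 126355640 to 126440344, plus strand), which helps to make sialyl Lewis antigens, varied less. Group means were 34.9 ± 1.74 CPM with LY500307, 34.3 ± 3.00 with vehicle, 28.2 ± 1.79 in add-back, 24.8 ± 1.09 in knockout and 28.7 ± 0.979 in control cells (SD, n = 3 each). LY500307 and vehicle libraries overlapped, as did add-back and control libraries, and knockout libraries were lowest. It fell in knockout against control cells (log2 fold change -0.21 ± 0.07, adjusted p 0.0199), but not past the threshold without control replicate 1 (adjusted p 0.0812) or knockout replicate 1 (0.1). Add-back against knockout cells gave 0.18 ± 0.07 (adjusted p 0.0736). That difference passed the threshold without add-back replicate 1 (0.25, adjusted p 0.0309) and with no filter on low counts (0.21, adjusted p 0.0273). It rose in vehicle against add-back cells (0.28 ± 0.07, adjusted p 0.00148). LY500307 against vehicle gave 0.03 ± 0.06 (adjusted p 0.845), and add-back against control cells -0.03 ± 0.07 (adjusted p 0.769).

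GNE (ENSG00000159921, chromosome 9, 36214441 to 36277056, minus strand), the rate-limiting enzyme of sialic acid synthesis, had 28.5 ± 1.04 CPM with LY500307, 30.6 ± 2.23 with vehicle, 23.8 ± 0.687 in add-back, 20.1 ± 2.34 in knockout and 20.2 ± 0.934 in control cells. Knockout against control cells gave -0.01 ± 0.08 with a 95% interval of -0.17 to 0.14 (adjusted p 0.909). It rose in add-back against knockout cells (0.25 ± 0.08, adjusted p 0.024) and stood above control cells (0.24 ± 0.08, adjusted p 0.0146). The first of these calls was lost without knockout replicate 1 (adjusted p 0.0891), knockout replicate 3 (0.0887) or add-back replicate 2 (0.0743), and the second without control replicate 2 (0.0504). Vehicle cells exceeded add-back cells (0.36 ± 0.07, adjusted p 0.000265), and LY500307 cells differed from vehicle cells by -0.10 ± 0.07 (adjusted p 0.414). GNE overlaps CLTA on the opposite strand, which had 74.1 CPM on average, and whether the counting used strand is not given in the sources used here.

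CMAS (ENSG00000111726, chromosome 12, 22046174 to 22065674, plus strand), which activates sialic acid for transfer, had 55.2 ± 0.990 CPM with LY500307, 62.6 ± 3.24 with vehicle, 53.0 ± 2.22 in add-back, 49.7 ± 2.69 in knockout and 55.0 ± 2.51 in control cells. Its small fall in knockout against control cells (-0.14 ± 0.05, adjusted p 0.0342) was lost with DESeq2 (adjusted p 0.0687), with the 6 libraries alone (0.0836), with offsets for GC content and length (-0.01, adjusted p 0.909) and without control replicate 1 (0.0719), control replicate 3 (0.165), knockout replicate 1 (0.0626) or knockout replicate 2 (0.185). The fall with LY500307 against vehicle (-0.18 ± 0.05, adjusted p 0.0392) was lost without any of the 6 libraries, at adjusted p from 0.0657 to 0.271, and with the GC offsets (-0.11, adjusted p 0.363). Vehicle cells exceeded add-back cells (0.24 ± 0.05, adjusted p 0.000716), which the GC offsets put at 0.09 (adjusted p 0.139). Add-back cells differed by 0.09 ± 0.05 from knockout cells (adjusted p 0.273) and by -0.06 ± 0.05 from control cells (adjusted p 0.42). CMAS overlaps ST8SIA1 on the opposite strand, a sialyltransferase gene whose mean level was 17.6 CPM with LY500307, 20.5 with vehicle, 40.9 in add-back, 44.8 in knockout and 29.9 in control cells.

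NEU1 (ENSG00000204386, chromosome 6, 31857659 to 31862906, minus strand), the lysosomal sialidase, had 41.6, 42.6 and 42.2 CPM with LY500307, 41.0, 41.4 and 40.7 CPM with vehicle, 22.2, 23.2 and 21.0 CPM in add-back cells, 23.4, 23.1 and 23.9 CPM in knockout cells and 15.7, 13.5 and 14.7 CPM in control cells. The groups formed 3 levels, with the depleted medium highest, knockout and add-back libraries overlapping in the middle and control lowest. It rose in knockout against control cells (0.69 ± 0.06, adjusted p 2.61e-08), in add-back against control cells (0.60 ± 0.06, adjusted p 1.82e-07) and in vehicle against add-back cells (0.89 ± 0.05, adjusted p 4.95e-11). Add-back against knockout cells gave -0.09 ± 0.06, with a 95% interval of -0.20 to 0.02 (adjusted p 0.364). LY500307 against vehicle gave 0.04 ± 0.05, with an interval of -0.05 to 0.13 (adjusted p 0.709).

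**Figure D2:**
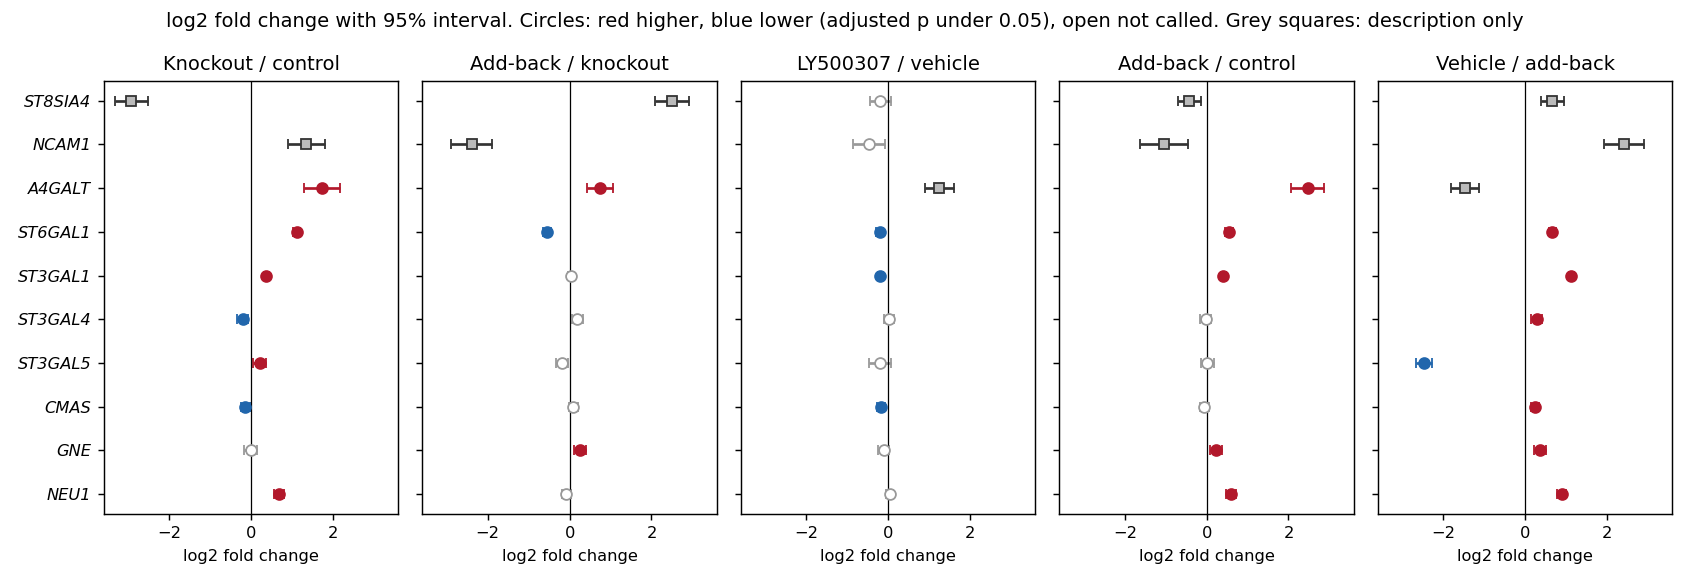
Log2 fold changes (horizontal axis) of the 10 genes in 5 comparisons with 95% intervals, where filled circles passed an adjusted p of 0.05, open circles did not, and grey squares are values that chose the gene or share libraries with those that did. Knockout against control ran from -2.93 (ST8SIA4) to 1.73 (A4GALT), and with LY500307 only the A4GALT square lay above 1.

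Counted over the 10 genes, 9 were called in knockout against control cells (6 higher, 3 lower), where 46.0% of all genes tested were called (23.4% higher, 22.6% lower). It was 6 (5 higher, 1 lower) without control replicate 1 or knockout replicate 1. In add-back against knockout cells it was 5 (3 higher, 2 lower), beside 19.6% of all genes (10.4% higher, 9.19% lower). With LY500307 against vehicle it was 4 (1 higher, 3 lower), beside 7.12% (4.77% higher, 2.35% lower), but 2 without vehicle replicate 1, vehicle replicate 2 or LY500307 replicate 1. In add-back against control cells it was 7 (5 higher, 2 lower), beside 45.8% (23.2% higher, 22.7% lower), but 4 without control replicate 2. In vehicle against add-back cells it was 10 (8 higher, 2 lower), beside 48.1% (26.4% higher, 21.6% lower). Since some of the genes were chosen from 3 of these comparisons, nothing is read from the counts there. Median log2 fold changes of the 10 genes were 0.29, 0.06, -0.18, 0.13 and 0.51 in the same order of comparisons, with medians over all genes between -0.02 and 0.01. The comparisons share libraries, so their counts are not independent.

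Per kilobase of transcript, with lengths weighted by the transcript counts, ST3GAL1 led in all groups, at 184 CPM per kb with LY500307, 209 with vehicle, 95.9 in add-back, 93.8 in knockout and 72.5 in control cells. CMAS followed in all 5, at 28.9 to 36.4 CPM per kb. The lowest mean was that of NCAM1 in 4 groups (0.573 CPM per kb with LY500307, 0.799 with vehicle, 0.147 in add-back and 0.306 in control cells) and of ST8SIA4 in knockout cells (0.136). Neighbours in this order whose libraries overlapped were found in every group. With LY500307 these were ST3GAL4 (22.2 CPM per kb) and NEU1 (21.7), and ST8SIA4 (1.10) and ST3GAL5 (1.00). With vehicle they were ST3GAL4 (21.8) and NEU1 (21.2), ST8SIA4 (1.26) and ST3GAL5 (1.16), and ST3GAL5 and A4GALT (1.06). In add-back cells ST6GAL1 (11.5) and NEU1 (11.4) overlapped, and in knockout cells ST6GAL1 (16.9) and ST3GAL4 (15.8). In control cells ST6GAL1 (7.81) overlapped with NEU1 (7.54), and A4GALT (0.531) with NCAM1 (0.306).

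**Figure D3:**
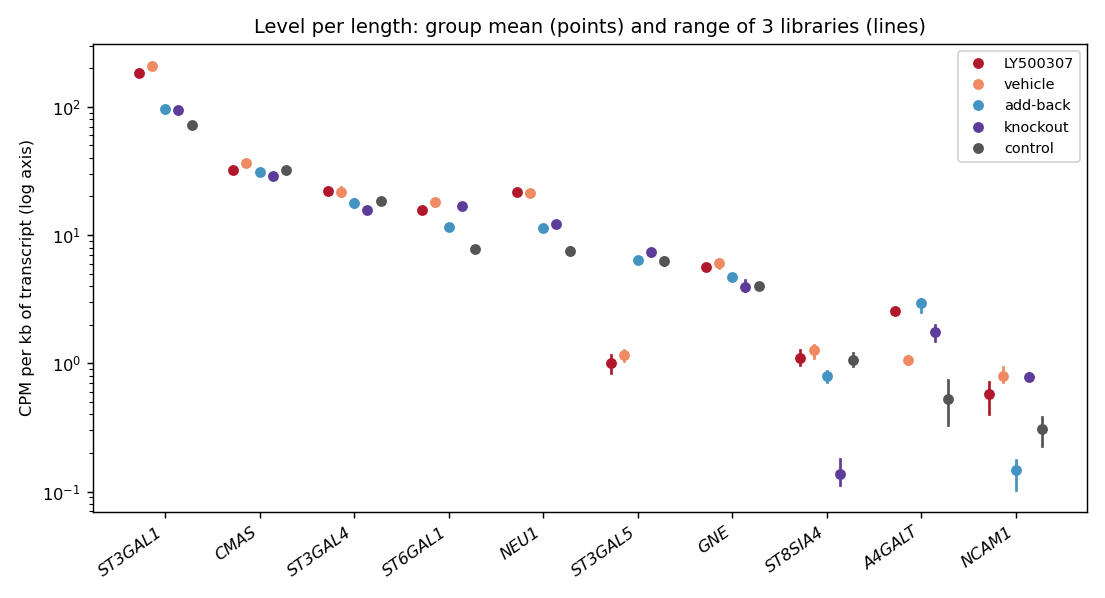
Level per length (CPM per kb of transcript, log axis) of the 10 genes, with group means as points and the range of 3 libraries as lines. ST3GAL1 led in every group, and ST8SIA4 in knockout cells (0.136) and NCAM1 in add-back cells (0.147) were the lowest values of the plot.

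Of all genes tested, 46.0% were called in knockout against control cells, 19.6% in add-back against knockout cells and 7.12% with LY500307 against vehicle. It was 45.8% in add-back against control cells and 48.1% in vehicle against add-back cells. The counts of calls among lists and neighbours below are to be read beside these shares. In the DESeq2 counts below, a gene to which DESeq2 gave no adjusted p counts as not called. How many listed genes this concerned was not recorded. Of 15 other sialyltransferases 11 were tested, and 6 rose and 1 fell in knockout against control cells (median log2 fold change 0.54). ST8SIA1, the GD3 synthase, rose (0.59 ± 0.05, adjusted p 4.94e-09). ST6GALNAC4, which adds a second sialic acid to short O-glycans, had 7.63 ± 0.261 CPM in knockout and 3.24 ± 0.274 CPM in control cells (1.23 ± 0.14, adjusted p 5.62e-07). ST6GALNAC1, the sialyl-Tn synthase, fell to 0.570 ± 0.236 CPM in knockout cells, against 2.57 ± 0.497 CPM in control cells (-2.20 ± 0.30, adjusted p 4.92e-06). In add-back against knockout cells 1 rose and 2 fell by edgeR, and 1 and 1 by DESeq2 (median -0.18). ST6GALNAC1 rose (1.74 ± 0.31, adjusted p 0.000407), and ST6GALNAC4 (-0.84 ± 0.13, adjusted p 0.000114) and ST8SIA1 (-0.13 ± 0.04, adjusted p 0.0418) fell. With LY500307 against vehicle 1 rose and 1 fell (median 0.02). ST6GALNAC4 had 5.23 ± 0.671 CPM with LY500307 and 2.88 ± 0.293 CPM with vehicle (0.85 ± 0.14, adjusted p 0.00223), and ST8SIA1 fell (-0.22 ± 0.05, adjusted p 0.022). DESeq2 called 0 of the list in that comparison, genes without an adjusted p included, and limma-voom 1 higher and 2 lower. In vehicle against add-back cells 4 rose and 4 fell (median -0.17). ST6GALNAC3, which sialylates O-glycans and gangliosides, had 19.3 ± 2.16 CPM with vehicle and 1.18 ± 0.212 CPM in add-back cells, a log2 fold change of 4.02 ± 0.15 (adjusted p 1.03e-13). ST6GALNAC2 rose (2.20 ± 0.54, adjusted p 0.00233), from 9, 4 and 10 counts in add-back libraries to 29, 47 and 31 with vehicle. ST8SIA1 fell to 20.5 ± 1.01 CPM with vehicle, against 40.9 ± 0.806 CPM in add-back cells, with an adjusted p of 3.26e-12. In add-back against control cells 4 rose and 0 fell by edgeR, with 5 and 0 at an unadjusted p under 0.05 and 3 and 0 by DESeq2 (median 0.24). ST6GALNAC3 rose by the most (1.48 ± 0.33, adjusted p 0.00122), with only 3, 8 and 7 counts in control libraries.

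The carriers and partners of polysialic acid were also read. Of 5 known carriers other than NCAM1, all tested, 2 rose and 2 fell in knockout against control cells (median 0.61). NRP2, a co-receptor of semaphorins and VEGF, had 1.13 ± 0.296 CPM in knockout and 13.3 ± 0.732 CPM in control cells (-3.57 ± 0.17, adjusted p 2.2e-12). CADM1, a cell adhesion molecule, had 12.9 ± 0.399 CPM in knockout and 4.45 ± 0.463 CPM in control cells (1.54 ± 0.10, adjusted p 5.01e-10). CD36, a fatty acid receptor, rose by 3.41 ± 0.23 (adjusted p 5.66e-10), from 14, 12 and 6 counts in control libraries. In add-back against knockout cells NRP2 (1.44 ± 0.20) and GLG1 (0.10 ± 0.04, adjusted p 0.0496) rose and CD36 fell (-1.47 ± 0.18), the first and last with adjusted p of 2.97e-05 and 6.17e-06. Of the 5 carriers, 2 rose and 1 fell in add-back against control cells (median 0.43). In vehicle against add-back cells 4 rose and 1 fell by edgeR, but 2 and 0 by DESeq2 (median 0.71). Of 5 tested relatives and partners of NCAM1 (7 listed), 5 rose in knockout against control cells (median 0.96) and 4 fell in add-back against knockout cells (median -0.42). L1CAM, an adhesion molecule of the same superfamily, had 2.92 ± 0.569 CPM in add-back, 10.5 ± 0.250 CPM in knockout and 1.71 ± 0.295 CPM in control cells. Its log2 fold change was 2.62 ± 0.18 in knockout against control cells (adjusted p 5.11e-10) and -1.85 ± 0.16 in add-back against knockout cells (adjusted p 7.3e-08). FGFR1, a receptor that NCAM1 binds, and FYN, a kinase downstream of NCAM1, rose by 0.96 ± 0.08 and 1.28 ± 0.12 in knockout against control cells (adjusted p 1.05e-08 and 4.64e-08). In add-back against knockout cells FGFR1 fell by 0.42 (adjusted p 0.00041) and PRNP, the prion protein and a binding partner of NCAM1, by 0.27 (adjusted p 2.81e-05). Against control cells, add-back cells had 4 of the 5 higher and 0 lower by edgeR, as at an unadjusted p under 0.05 and by DESeq2 and limma-voom (median 0.76), with FYN at 0.76 ± 0.12 (adjusted p 4.71e-05), where NCAM1 stood at -1.04. In vehicle against add-back cells 2 rose and 3 fell (median -0.35), with FGFR1 up by 0.54 ± 0.07 (adjusted p 4.66e-06) and L1CAM down (-1.26 ± 0.21, adjusted p 6.6e-05), where NCAM1 stood at 2.41. Of all genes tested, 46.0%, 19.6%, 45.8% and 48.1% were called in these 4 comparisons. With LY500307 against vehicle 0 of the 10 tested genes of these 2 lists were called by edgeR, DESeq2 or limma-voom, and 0 had an unadjusted p under 0.05.

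Among 18 genes of glycosphingolipid synthesis and breakdown, the pathway of A4GALT and ST3GAL5, 14 were tested. In knockout against control cells 7 rose and 4 fell (median 0.21), with B3GALT5, which makes globo-series antigens from Gb4, at 1.95 ± 0.448 CPM in knockout and 0.312 ± 0.225 CPM in control cells (2.55 ± 0.36, adjusted p 1.03e-05). UGCG and B4GALT5, which make glucosylceramide and lactosylceramide, fell by 0.21 each in that comparison (adjusted p 0.00288 and 0.000758) and rose in add-back against knockout cells by 0.17 ± 0.05 and 0.27 ± 0.05 (adjusted p 0.0263 and 0.000283). There 4 genes rose and 1 fell by edgeR, but 2 and 0 by DESeq2. In add-back against control cells 8 rose and 3 fell by edgeR, and 6 and 2 by DESeq2 (median 0.17). GLA, the lysosomal enzyme that removes the galactose A4GALT adds, was among the lower ones by edgeR (-0.42 ± 0.05, adjusted p 1.93e-06). In vehicle against add-back cells 11 rose and 0 fell by edgeR, as at an unadjusted p under 0.05, and 9 rose and 0 fell by DESeq2 (median 0.29), including B3GALNT1, the next globo-series enzyme after A4GALT (0.84 ± 0.07, adjusted p 2.4e-08). With LY500307 against vehicle 0 of the 14 were called by edgeR, DESeq2 or limma-voom, and 1 was higher and 3 lower at an unadjusted p under 0.05 (median -0.03). A4GALT stood at 1.25 there but was chosen for that rise, so its contrast with the list is no test.

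Of 14 other genes of sialic acid synthesis, transport and breakdown 12 were tested. In knockout against control cells 5 rose and 1 fell (median 0.15), with SIAE, the sialate esterase, up by 0.39 ± 0.05 (adjusted p 5.77e-06) and the sialidase NEU3 down (-0.28 ± 0.05, adjusted p 0.00022). In add-back against knockout cells 4 rose and 0 fell by edgeR, 3 and 0 by DESeq2 and by limma-voom, and 5 and 1 at an unadjusted p under 0.05 (median 0.02). In add-back against control cells 5 rose and 1 fell (median 0.14). In vehicle against add-back cells 7 rose and 0 fell by edgeR, DESeq2 and limma-voom and at an unadjusted p under 0.05 (median 0.32). CTSA, the protective protein that NEU1 needs in the lysosome, rose by 0.39 ± 0.03 (adjusted p 1.65e-08) and CASD1, which acetylates sialic acid, by 0.60 ± 0.08 (adjusted p 7.54e-06). With LY500307 against vehicle SLC35A1, the Golgi transporter of CMP-sialic acid, fell (-0.24 ± 0.06, adjusted p 0.0229), and it was the only call of the list. Of 19 enzymes that make the acceptors or compete for them 18 were tested, with 8 higher and 4 lower in knockout against control cells (median 0.15), 3 and 4 in add-back against knockout cells (median -0.05), 6 and 2 in add-back against control cells (median 0.05) and 7 and 4 in vehicle against add-back cells (median 0.08). By DESeq2 the counts were 6 and 4, 3 and 1, 5 and 2, and 6 and 3 in the same order. GCNT1, which branches O-glycans, fell in knockout against control cells (-0.66 ± 0.08, adjusted p 8.18e-07), rose in add-back against knockout cells (0.68 ± 0.07, adjusted p 1.82e-06) and had 54.2 ± 2.63 CPM with vehicle and 16.3 ± 0.986 CPM in add-back cells, a log2 fold change of 1.73 ± 0.06 (adjusted p 1.29e-14). B4GALT1, which supplies the galactose of N-glycans, rose by 0.54 ± 0.04 in that last comparison (adjusted p 1.92e-09). With LY500307 against vehicle FUT1 rose (0.20 ± 0.05, adjusted p 0.0295) and C1GALT1C1, the chaperone of core O-glycan synthesis, fell (-0.18 ± 0.05, adjusted p 0.0449). DESeq2 called 2 of this list higher and 0 lower there, so the C1GALT1C1 call was lost, and limma-voom called 2 and 1. The shares of all genes called, given above, stand beside these counts too. The medians over all genes tested, given above, lay near 0 in each comparison.

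**Figure D4:**
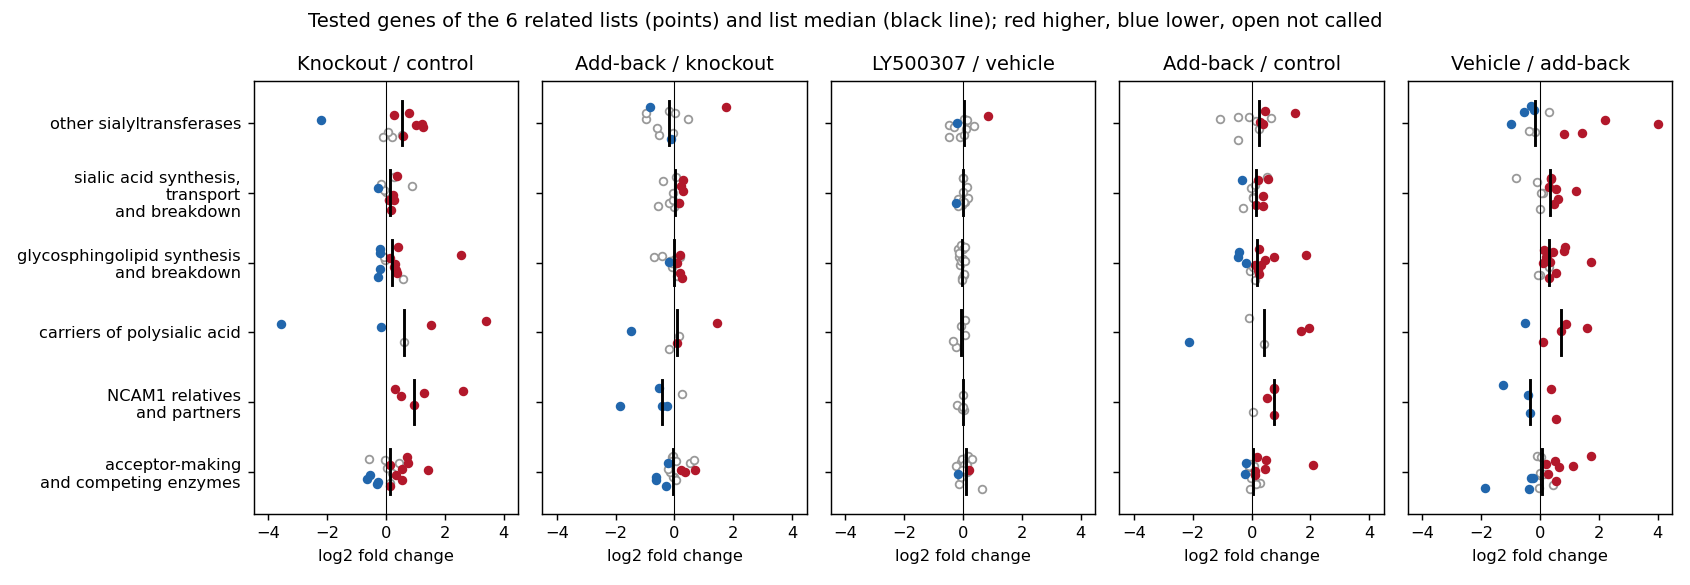
Log2 fold changes (horizontal axis) of the tested genes of 6 related lists (rows) in 5 comparisons, with red called higher, blue called lower, open circles not called and a black line at the list median. The 5 tested NCAM1 relatives and partners lay above 0 in knockout against control cells, and ST6GALNAC3 at 4.02 was the far right point of vehicle against add-back cells.

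The genes nearest to the 3 chosen ones were also read. Since the 3 were chosen for their large changes, their distance from these neighbours is a description and not a test. For the 5 nearest tested protein-coding genes on each side of ST8SIA4, log2 fold changes in knockout against control cells ran from -0.36 to 0.74 with a median of -0.17 (1 higher, 5 lower). The lower ones were RIOK2, CHD1, PAM, PPIP5K2 and MACIR, and FAM174A was higher. In add-back against knockout cells the range was -0.27 to 0.39 and SLCO4C1, a transporter gene, was the one call (0.39, adjusted p 0.0298). In vehicle against add-back cells SLCO4C1 rose by more (1.58, adjusted p 2.57e-11) than the 0.67 of ST8SIA4. Around NCAM1 the range in add-back against knockout cells was -0.19 to 0.36, with IL18 higher and ZW10 lower. In knockout against control cells it was -0.72 to 2.23, with IL18 and SDHD lower and C11orf71 and ANKK1 higher (ANKK1 2.23, adjusted p 0.0226, against 1.35 for NCAM1). ANKK1 was also higher in add-back against control cells (2.05, adjusted p 0.0362), where NCAM1 stood at -1.04. Around A4GALT the range with LY500307 against vehicle was -0.31 to 0.63, where CYB5R3 (0.25, adjusted p 0.00689) and MCAT (0.34, adjusted p 0.0137) were called higher. In knockout against control cells CYB5R3, ARFGAP3 and BIK were called higher, with a highest value of 0.58.

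**Figure D5:**
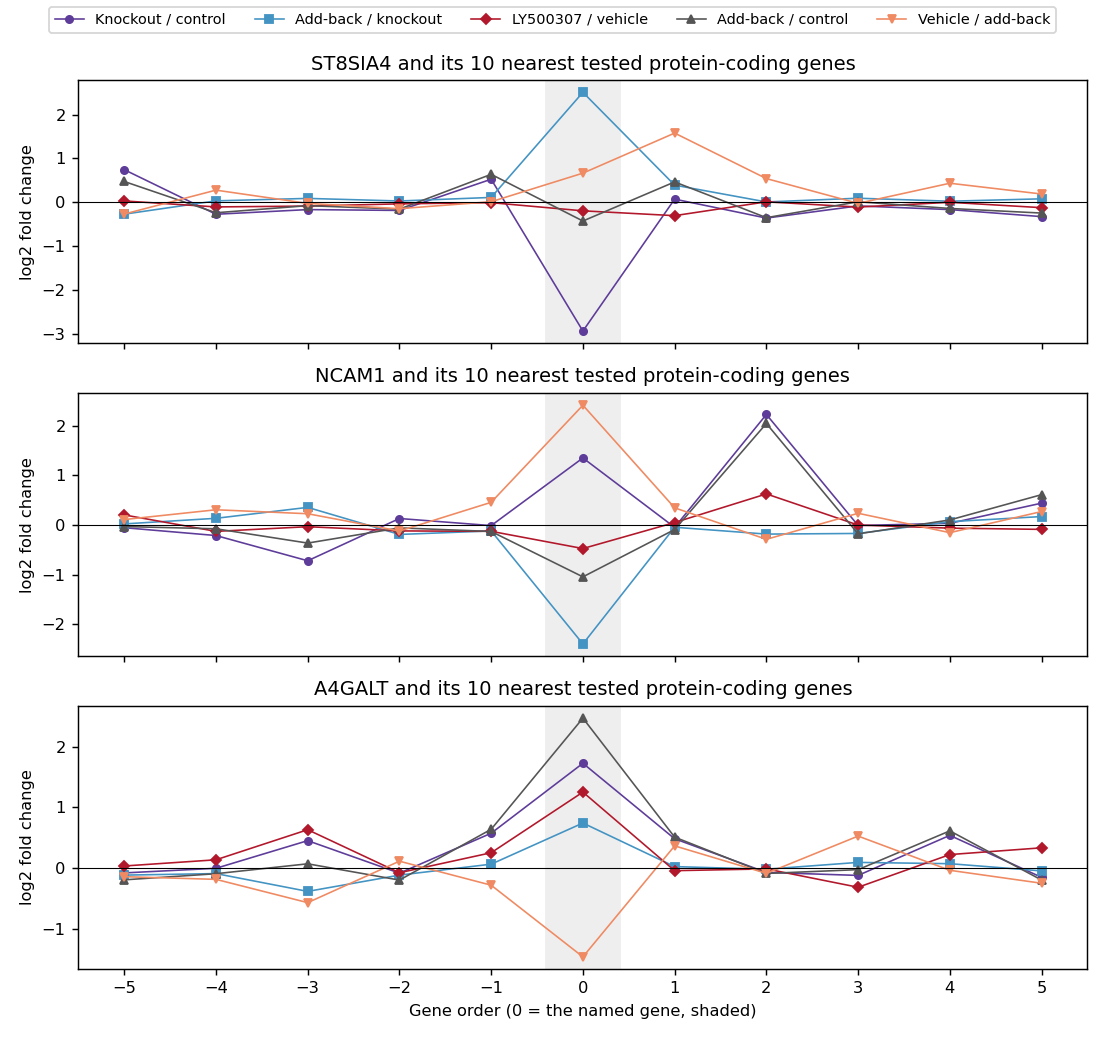
Log2 fold changes (vertical axis) of ST8SIA4, NCAM1 and A4GALT (shaded, position 0) and of the 5 nearest tested protein-coding genes on each side in gene order, with 1 line per comparison. In knockout against control cells ST8SIA4 at -2.93 lay below all its neighbours, which ran from -0.36 to 0.74, while 1 NCAM1 neighbour (ANKK1, 2.23) exceeded NCAM1. ST8SIA4 was chosen for its fall there, so its place below them is no test.

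RSEM's transcript estimates, which split shared reads, gave 1 main transcript for some of the genes. ST8SIA4-201, which codes for 359 residues, took 95.7% of the ST8SIA4 counts over all libraries, CMAS-201 (434 residues) 91.9% and ST3GAL1-211 62.7%. NCAM1-201 (858 residues) took 58.7% and NCAM1-225 (848 residues) 18.9%, with SDs of up to 41.3 percentage points between libraries of a group. For A4GALT the 4 coding transcripts code for 353 residues each, and their shares varied by SDs of up to 54.1 points, so no switch could be read. Of NEU1 counts 52.6% went to a transcript annotated for nonsense-mediated decay and 26.7% to NEU1-206 (415 residues). Transcripts with an entry in GENCODE 29 held 80.0% of the NEU1 counts. Transcripts annotated as retaining an intron took 33.9 ± 18.5% of ST3GAL5 counts with LY500307, 35.3 ± 3.58% with vehicle, 52.9 ± 2.27% in add-back, 49.8 ± 2.13% in knockout and 52.9 ± 10.7% in control cells. ST3GAL4-203, singled out after its values were seen, took 42.0 ± 5.11% of ST3GAL4 counts with LY500307, 50.0 ± 3.96% with vehicle, 30.3 ± 13.2% in add-back, 19.2 ± 2.90% in knockout and 18.6 ± 7.41% in control cells. The lowest library of both treated groups, at 36.3%, lay above the highest knockout library (20.9%) and the highest control library (25.9%), but add-back libraries reached 41.0% and overlapped with those given LY500307.

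The genes whose log2 CPM followed the 3 chosen genes most closely over the 15 libraries were picked by Pearson r among 12116 protein-coding genes. The libraries share groups of 3, so r mostly reflects 5 group levels, and it is given as a description. For ST8SIA4 they were TGFBR2 (0.978), BRWD3 (0.977), DPYSL2 (0.971), TOP2A (0.969) and TFPI (0.969). TGFBR2, a TGF-β receptor, had 88.6 CPM with LY500307, 98.1 with vehicle, 78.0 in add-back, 44.9 in knockout and 83.1 in control cells. For NCAM1 they were LBH (0.946), SLC16A7 (0.943), CALB2 (0.935), ACSS1 (0.927) and REEP1 (0.925). LBH, a transcription cofactor, had 26.7 CPM with LY500307, 32.8 with vehicle, 13.2 in add-back, 35.3 in knockout and 22.0 in control cells. For A4GALT they were CA12 (0.957), RHOB (0.945), SSR4 (0.938), ZMIZ1 (0.935) and RAB1B (0.933). CA12, a carbonic anhydrase known to respond to estrogen, had 125 CPM with LY500307, 44.5 with vehicle, 120 in add-back, 92.0 in knockout and 28.1 in control cells, the same order of groups as A4GALT apart from LY500307 and add-back, which overlapped for A4GALT.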

How the data were processed

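Stranded total RNA was sequenced after removal of ribosomal RNA, per the labels' protocols. Per the submitters' processing notes the authors used FastQC and Trim Galore, then GSNAP and RSEM, with the GRCh38 build, with no versions given. The annotation release and the use of strand are not given in the sources used here. The deposited tables hold RSEM expected counts, not normalized, for genes and for transcripts.

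Expected counts were rounded and tested with edgeR 4.0.16 in R 4.3.3: filterByExpr by group (19516 genes kept), TMM factors, 1 group-means model of 15 libraries and a quasi-likelihood F test (two-sided), with Benjamini-Hochberg adjustment over all genes tested and a threshold of 0.05. Fold changes are log2 ± SE. The biological coefficient of variation was 4.99%. The test was tried on simulated counts that gave all genes this same variation, unlike the data, and no result here rests on that trial. Positions, transcript types and lengths came from GENCODE 29 (58396 identifiers matched).

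The members, gene lists and rules were chosen with earlier results of these data known. Named genes were the 10 members, some or all of the up to 3 called genes with the smallest p per list and comparison (mean log2 CPM of at least 0, with UGCG and B4GALT5 in a second comparison as exceptions), marker genes, called neighbours, and the 5 most alike genes. Alternatives were RLE and upper-quartile factors, DESeq2 1.42.0, limma-voom (limma 3.58.1), no filter, a filter at 1 CPM in 3 libraries, only the 6 libraries compared, a replicate block, GC and length offsets (mgcv 1.9.3; 19093 genes had both values), and leaving out each library. The labels do not say whether replicate numbers pair libraries. Residuals of libraries with the same number correlated at -0.0952 to 0.0603, and those with different numbers at -0.0699 to 0.0976. These ranges show no strong shared effect but cannot settle whether libraries were paired.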

Additional observations from a re-analysis of the deposited data

How the results depend on the processing

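Of 747 recomputed log2 fold changes of the 10 genes, 693 kept their direction and side of the threshold, 39 kept only their direction and lost their call, 2 gained one and 13 changed sign. The sign changes were all in values that had no call. GNE in knockout against control cells (-0.014) became 0.047 with GC and length offsets and 0.004 with only the 6 libraries compared, and ran from -0.106 to 0.042 when a library was left out. ST3GAL4 with LY500307 against vehicle (0.030) became -0.036 with the offsets and ran from -0.024 to 0.114 without a library. In add-back against control cells ST3GAL4 (-0.027) became 0.003 with no filter on low counts and ran from -0.050 to 0.039 without a library, ST3GAL5 (0.021) became -0.001 with upper-quartile factors and ran from -0.014 to 0.084 without a library, and CMAS (-0.055) became 0.073 with the offsets. The cause was not tested.

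Members called with LY500307 against vehicle (4) ranged from 2 to 3 when a library was left out, and in add-back against control cells (7) from 4 to 7. Over all genes, LY500307 against vehicle gave 1389 calls, but 327 with the offsets and 299 (without vehicle replicate 2) to 1844 (without vehicle replicate 3) when a library was left out, with 403 without vehicle replicate 1, 586 without LY500307 replicate 1 and 487 without LY500307 replicate 2. With the longest annotated transcript as length, 6 of 10 genes kept their place in the order of levels in vehicle cells. DESeq2 gave no adjusted p to A4GALT with LY500307 against vehicle. Under upper-quartile factors 42.0% of the calls in add-back against knockout cells were higher, against 53.1% with TMM and 58.9% with RLE factors. No scaling moved the median of all genes by more than 0.088 on the log2 scale. Per the labels libraries share only a number across groups, so the replicate block was a check alone. The block gave 9, 5, 4, 7 and 10 member calls in the 5 comparisons, as without it. Over all genes in knockout against control cells it gave 8807 calls, against 8971 without the block. Depth limits ST8SIA4 in knockout, NCAM1 in add-back and A4GALT in control cells most, with 8 to 19 counts per library.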
